A study of Homo sapiens with 10 samples.

Results

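Superoxide dismutases, catalase and glutathione peroxidases are the enzymes that remove superoxide and peroxides in sequence, and their mRNAs were measured in RPE-1 cells treated with sulforaphane (SFN). The 8 members SOD1, SOD2, CAT, GPX1, GPX3, GPX4, GPX7 and GPX8 were looked up by gene symbol, and 7 of them had a row among the 28380 genes counted. GPX7 was not analysed here. The cells, RPE-1, are a telomerase-immortalized line from human retinal pigment epithelium, so the results describe a single cell line. There were 5 libraries from cells given 25 µM SFN, an isothiocyanate from cruciferous vegetables, and 5 from cells given its vehicle DMSO, each for 4 h and each from 50000 cells in complete medium. The SFN and DMSO libraries were compared to ask how far this first line of antioxidant enzymes moves in the first hours of SFN.

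Superoxide dismutases convert superoxide into hydrogen peroxide and oxygen. SOD1 is the copper and zinc enzyme of the cytosol, and SOD2 the manganese enzyme of the mitochondrial matrix. Catalase, encoded by CAT, breaks hydrogen peroxide down in peroxisomes, and glutathione peroxidases reduce peroxides with glutathione or other thiols. GPX1, GPX3 and GPX4 carry the rare amino acid selenocysteine at the catalytic site, whereas GPX8, a membrane protein of the endoplasmic reticulum (ER), carries cysteine there. SFN is known to activate NRF2, a transcription factor that drives many antioxidant genes through antioxidant response elements.

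The catalytic codon separates the peroxidases that are described below, so the coding sequence around it is shown with that codon in capitals. In selenoprotein mRNAs it is TGA, which is a stop codon elsewhere. Each stretch of 30 bases is from the canonical GENCODE 44 transcript (GRCh38) and is printed 5′ to 3′ on the coding strand.
GPX1, chr3:49358120-49358149, minus strand: aatgtggcgtccctcTGAggcaccacggtc
GPX3, chr5:151025454-151025483, plus strand: aacgtggccagctacTGAggcctgacgggc
GPX4, chr19:1105388-1105417, plus strand: aacgtggcctcccagTGAggcaagaccgaa
GPX8, chr5:55161009-55161038, plus strand: aacgtggccagtgacTGCcaactcacagac
The TGA codon was codon 49 of GPX1, codon 73 of GPX3 and codon 73 of GPX4, and in all of these genes the annotation marks it as selenocysteine. It lies in exon 1 of 2 in GPX1, exon 2 of 5 in GPX3 and exon 3 of 7 in GPX4. In GPX8 the codon in its place was TGC for cysteine, codon 79, in exon 2 of 3.

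The total count per library ranged from 15689294 to 20666692 in DMSO and from 12375860 to 17308706 in SFN. DMSO replicate 1 stood apart from the other libraries. Its log2 CPM (counts scaled to a common library size) fell by 0.271 per doubling of transcript length, taken relative to the mean of all libraries, while this length slope lay between 0.0872 and 0.148 in the other DMSO libraries and between -0.183 and 0.109 in SFN. The members and the counts over gene lists are therefore given with and without this library. Of the markers checked for the cell type, the keratins KRT8 and KRT18 were present at 316 to 539 and 169 to 318 CPM, and the mesenchymal gene VIM at 5424 CPM or more. The epithelial adhesion gene EPCAM had at most 2 counts in any library, and CDH1 had no row. RPE65, RLBP1, TYRP1, TTR and SERPINF1, which define mature pigment epithelium, had at most 4 counts in any library. Other markers on that list were present, with 97 to 1244 counts of BEST1, 217 to 1210 of MITF and 107 to 299 of OTX2. MITF lay between 43.9 and 55.1 CPM in DMSO and between 18.7 and 25.6 CPM in SFN. OTX2 lay between 12.1 and 17.7 CPM in DMSO and between 8.69 and 9.36 CPM in SFN. Both were thus lower in every SFN library than in any DMSO library. BEST1 did not fall with them, at 5.42 to 41.8 CPM in DMSO and 19.4 to 107 CPM in SFN, with overlapping groups. The part of these markers in the results was not tested. The 10 of 11 listed pigment epithelium markers with a row summed to 62.5 to 104 CPM in DMSO and 55.8 to 137 CPM in SFN. PTPRC, PECAM1 and CDH5, markers of blood and endothelium, had at most 9. Since RNA from whole cultures was sequenced, a change in every cell cannot be told apart from a change in the share of cells that hold a transcript. Nothing in the labels says whether the libraries of a group came from separate cultures, so the p-values measure the spread between these libraries.

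GPX8 rose, and it was the member of the 7 that passed the test when all libraries were used. It lies on chromosome 5 of GRCh38 from 55160167 to 55167297, inside and opposite to CDC20B, which had 1 count over the 10 libraries. The GPX8 level was 173, 132, 118, 124 and 141 CPM in DMSO replicates 1 to 5. In SFN replicates 1 to 5 the GPX8 level was 221, 224, 214, 241 and 229 CPM. Each SFN library was thus above every DMSO library, with 2602 to 3705 counts behind each SFN value. The mean rose from 137 ± 21.8 CPM (SD, n = 5) to 226 ± 10.1 CPM (SD, n = 5), a 1.64-fold increase (log2 fold change 0.72 with an SE of 0.12, adjusted p = 9.8e-04 in the quasi-likelihood test of edgeR). DMSO replicate 1 was the highest DMSO library for GPX8, and without it the increase was 1.75-fold (log2 fold change 0.81, adjusted p = 2.7e-06 in that test).

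By edgeR's quasi-likelihood test 1 of the 7 members was therefore called higher and 0 lower, against 9.07% of the 13378 tested genes called higher and 13.9% called lower. Scaled by library size alone, 819 genes were called higher and 2163 lower, compared with 1214 and 1862 here, and GPX8 was again the member called. With p under 0.05 before adjustment there were again 1 and 0, against 1948 and 2676 of the 13378 tested genes. DESeq2 also gave 1 and 0, against 1635 and 2121 of all tested genes. Limma-voom with quantile normalization gave 1 and 0 as well, against 1317 and 1533. GPX8 was likewise the member whose groups did not overlap, and 8.78% of the tested genes lay wholly higher in SFN. All 7 members passed the filter on low counts. All 7 also had a positive log2 fold change, as did 6340 of the 13378 tested genes. The median was 0.32 against -0.03 over all tested genes, but apart from GPX8 none of the members passed the test.

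**Figure D1:**
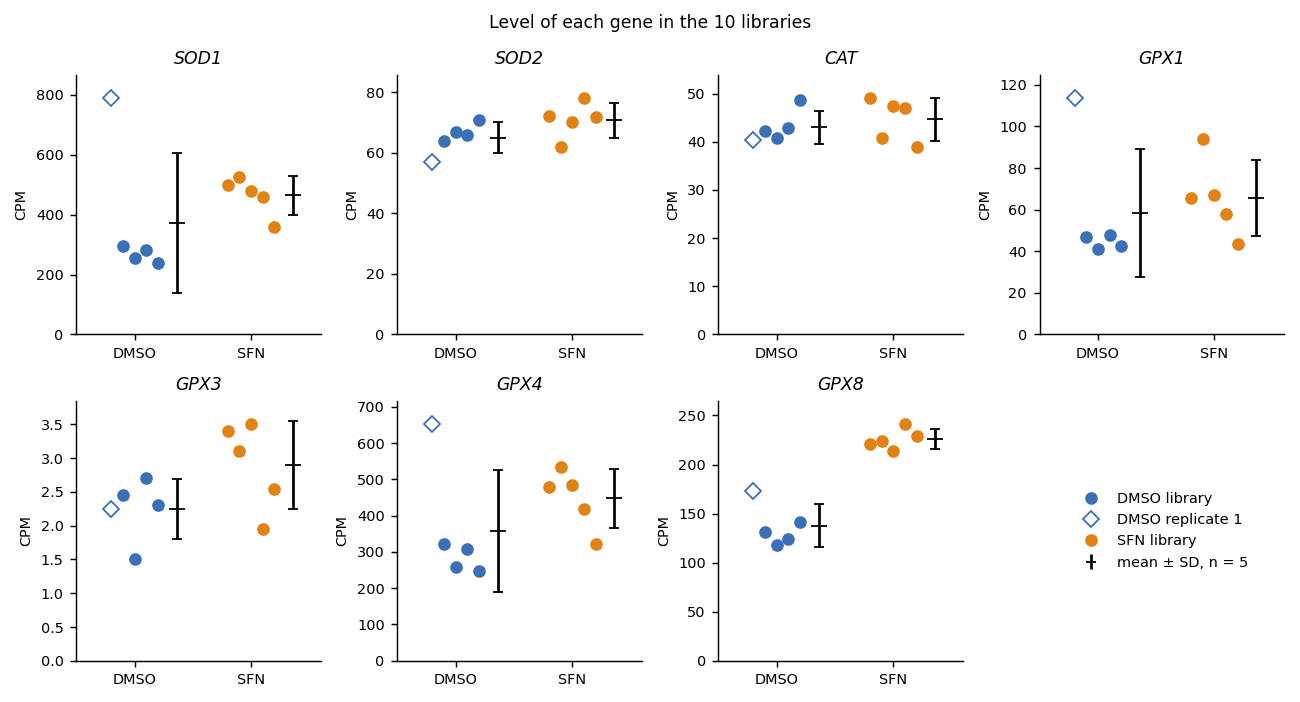
Level of each gene in CPM (linear axis from 0, a separate scale per gene) in the 5 DMSO and 5 SFN libraries, with replicates 1 to 5 from left to right in each group; the open diamond is DMSO replicate 1, and bars give the mean ± SD over 5 libraries. The diamond lies above every other library for SOD1, GPX1 and GPX4, whereas for GPX8 all SFN libraries, at 214 CPM or more, lie above it.

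SOD1 lies on chromosome 21 from 31659666 to 31668931 and has a canonical transcript of 895 nt. Its level in DMSO replicates 1 to 5 was 788, 294, 255, 281 and 240 CPM. In SFN replicates 1 to 5 the SOD1 level was 498, 526, 479, 459 and 358 CPM. DMSO replicate 1 was thus the highest of all 10 libraries, while each of the other DMSO libraries was below every SFN library. With all libraries SOD1 did not pass the test (372 ± 234 CPM in DMSO and 464 ± 64.2 CPM in SFN, SD, n = 5, log2 fold change 0.32 with an SE of 0.31, adjusted p = 0.52 in the quasi-likelihood test of edgeR). Without DMSO replicate 1 it passed, from 268 ± 24.4 CPM (SD, n = 4) in DMSO (log2 fold change 0.79 with an SE of 0.11, adjusted p = 6.0e-05 in that test).

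SOD2, the mitochondrial dismutase and a known target of NF-kB, lies on chromosome 6 from 159669069 to 159762529. It ranged from 57.0 to 71.0 CPM in DMSO and from 62.0 to 78.1 CPM in SFN, and the groups overlapped. The means were 65.0 ± 5.13 and 70.8 ± 5.77 CPM (SD, n = 5), and the log2 fold change of SOD2 was 0.12 (SE 0.10, adjusted p = 0.43 in the quasi-likelihood test of edgeR), or 0.08 without DMSO replicate 1 (adjusted p = 0.48). The table held 2 rows named SOD2, and the second had at most 1 count in a library and was not tested. On the opposite strand SOD2 overlaps WTAP over 30735 bases and ACAT2 over 485 bases, and without a stated use of strand reads from these genes could not be told apart there.

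Catalase mRNA had the smallest log2 fold change of the 7 members. CAT lies on chromosome 11 from 34438934 to 34472060 in 13 exons. Its level lay between 40.3 and 48.8 CPM in DMSO and between 38.98 and 49.1 CPM in SFN, so that the SFN range enclosed the DMSO range. The means were 42.97 ± 3.39 and 44.6 ± 4.49 CPM (SD, n = 5), with a log2 fold change of 0.06 (SE 0.11, adjusted p = 0.76 in the quasi-likelihood test of edgeR), and 0.03 without DMSO replicate 1.

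GPX4 reduces phospholipid hydroperoxides in membranes and is known to guard cells against ferroptosis, a form of death driven by lipid peroxidation. It lies on chromosome 19 from 1103982 to 1106791, with a canonical transcript of 851 nt. The GPX4 level in DMSO replicates 1 to 5 was 651, 321, 257, 308 and 248 CPM. In SFN replicates 1 to 5 it was 480, 534, 484, 418 and 322 CPM. As for SOD1, DMSO replicate 1 exceeded every SFN library and the other DMSO libraries lay below all of them, by a small margin for SFN replicate 5. GPX4 did not pass the test with all libraries (357 ± 167 CPM in DMSO and 448 ± 81.2 CPM in SFN, SD, n = 5, log2 fold change 0.33 with an SE of 0.26, adjusted p = 0.42 in the quasi-likelihood test of edgeR). It did so without DMSO replicate 1, from 283 ± 36.3 CPM (SD, n = 4) in DMSO (log2 fold change 0.65 with an SE of 0.13, adjusted p = 0.0013 in that test).

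GPX1, the main peroxidase of the cytosol and mitochondria for soluble peroxides, lies on chromosome 3 from 49357174 to 49358605, with a canonical transcript of 899 nt. Its level in DMSO replicates 1 to 5 was 114, 46.9, 41.1, 47.9 and 42.4 CPM. In SFN replicates 1 to 5 the GPX1 level was 65.4, 93.9, 66.9, 57.7 and 43.6 CPM. The groups overlapped with and without DMSO replicate 1, because SFN replicate 5 lay within the range of the other DMSO libraries. The log2 fold change of GPX1 was 0.17 (SE 0.30, adjusted p = 0.75 in the quasi-likelihood test of edgeR) from 58.4 ± 31.0 to 65.5 ± 18.3 CPM (SD, n = 5). Without DMSO replicate 1 it was 0.55 (SE 0.16, adjusted p = 0.014), from 44.6 ± 3.30 CPM (SD, n = 4) in DMSO.

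GPX1 has a processed copy, GPX1P1, to which the counting could assign some of its reads, so the separate values of this pair are uncertain. Another protein-coding gene on the same strand, which had no row of its own, also overlaps GPX1. GPX1P1 had 275 to 853 counts in a library. Its level was 26.8 ± 14.9 CPM in DMSO and 31.2 ± 8.68 CPM in SFN (SD, n = 5), with DMSO replicate 1 highest at 53.1 CPM. Summed over the pair, the level was 85.2 ± 45.8 CPM in DMSO and 96.7 ± 26.9 CPM in SFN (SD, n = 5), with 64.9 ± 5.02 CPM (SD, n = 4) in DMSO without replicate 1.

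GPX3, the secreted peroxidase of plasma, was at low counts, between 27 and 57 in any library, so that counting error is a large part of its spread. It lies on chromosome 5 from 151020591 to 151028988. The GPX3 level lay between 1.51 and 2.71 CPM in DMSO and between 1.96 and 3.50 CPM in SFN, with 3 of 5 SFN libraries above every DMSO library. GPX3 had a log2 fold change of 0.37 (SE 0.22, adjusted p = 0.28 in the quasi-likelihood test of edgeR), and 0.36 without DMSO replicate 1 (adjusted p = 0.22).

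Without DMSO replicate 1, 4 of the 7 members were called higher by edgeR's quasi-likelihood test, namely GPX8, SOD1, GPX4 and GPX1, and 0 lower (0 at an unadjusted p under 0.05). The same fit called 22.5% of 13566 tested genes higher and 23.5% lower. SOD1, GPX4 and GPX8 had no overlap between the groups there, against 16.6% of the tested genes wholly higher in SFN. SOD1, GPX1 and GPX4 are the members with canonical transcripts under 1000 nt, and DMSO replicate 1 held 2.95, 2.55 and 2.30 times the mean of the other DMSO libraries for these genes. Over the 1326 tested genes with a canonical transcript under 1000 nt, the median log2 difference between DMSO replicate 1 and the other DMSO libraries was 0.91, and it was -0.13 over the 11999 longer ones. Of these short genes 38.01% were called higher without DMSO replicate 1, compared with 20.8% of the longer ones.

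**Figure D2:**
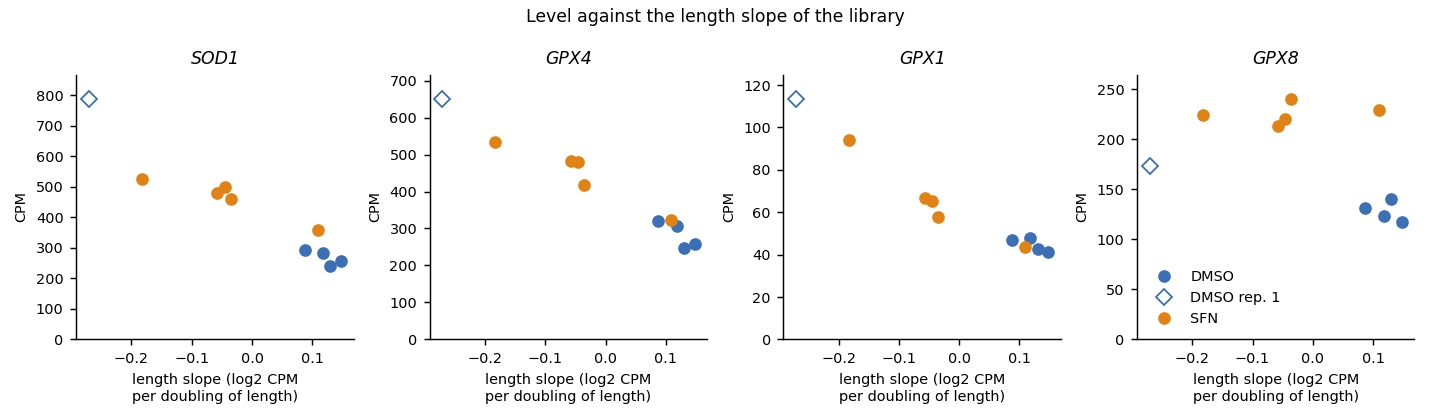
Level of SOD1, GPX4, GPX1 and GPX8 (CPM, linear axes from 0) against the length slope of each library (change of log2 CPM, relative to the mean of all libraries, per doubling of transcript length), with 1 point per library and DMSO replicate 1 as an open diamond. The 3 short transcripts are highest in DMSO replicate 1, at a slope of -0.271, and next in SFN replicate 2, at -0.183, while GPX8 is above 213 CPM in every SFN library whatever its slope.

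The same ordering held within the SFN group. SFN replicate 2 had the lowest length slope of the group, -0.183, and the highest SOD1, GPX4 and GPX1 levels of the 5. SFN replicate 5 had the highest slope, 0.109, and the lowest level of each of these genes. Its slope was inside the range of DMSO replicates 2 to 5, and this library held 358 CPM of SOD1, above the 294 CPM of the highest of those, and 322 CPM of GPX4, next to their highest value of 321 CPM. Its 43.6 CPM of GPX1 lay within their range of 41.1 to 47.9 CPM. For GPX8 it held 229 CPM, against at most 141 CPM in those libraries. This comparison rests on a single SFN library and has no replicate.

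When a smooth curve of log2 CPM against transcript length was removed in each library, an alternative chosen after seeing the data, GPX8 was again the member called (log2 fold change 0.75, adjusted p = 0.0013 in the quasi-likelihood test of edgeR), and 13.2% of the genes tested were called higher. SOD1 then had a log2 fold change of 0.33 (SE 0.14, adjusted p = 0.097), GPX4 of 0.28 (SE 0.10, adjusted p = 0.060) and GPX1 of 0.12 (SE 0.12, adjusted p = 0.50) by the same test. With the curve removed and DMSO replicate 1 left out as well, 5 members were called higher, where 25.5% of all genes tested were and 22.3% were lower. The log2 fold changes were 0.90 for GPX8, 0.49 for SOD1, 0.42 for SOD2, 0.34 for GPX4 and 0.23 for GPX1, so for SOD1, GPX4 and GPX1 the difference was smaller than without the curve. The SOD2 value in this fit depends on its canonical transcript of 14167 nt, far longer than the other members' transcripts, and SOD2 was not called without the curve.

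**Figure D3:**
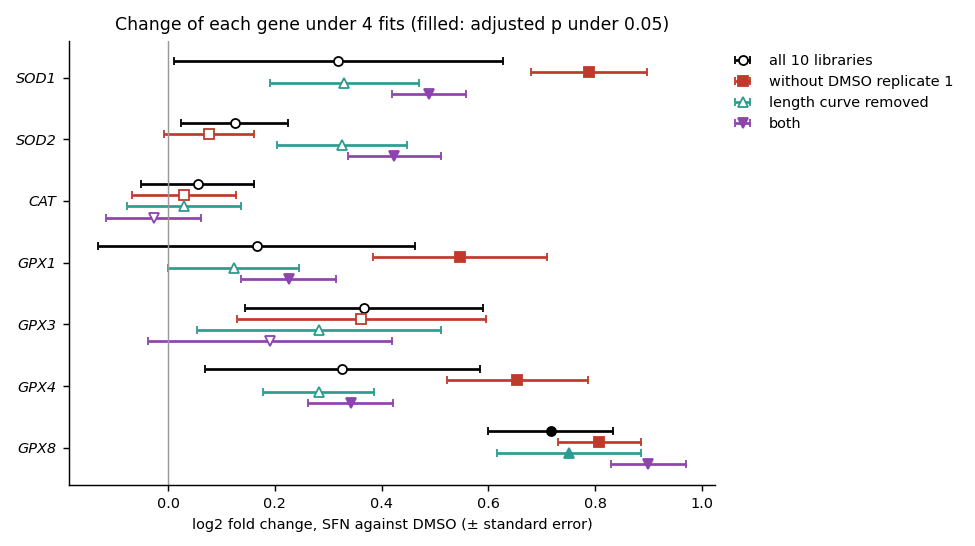
Log2 fold change of each gene, SFN against DMSO, with its standard error, in 4 fits by edgeR's quasi-likelihood test; filled symbols have an adjusted p under 0.05 over all genes tested in that fit. GPX8 is filled in all 4 fits at 0.72 to 0.90, SOD1, GPX4 and GPX1 are filled in the 2 fits without DMSO replicate 1, and CAT and GPX3 in none.

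Ratios of counts within a library need no scaling, and 2 were tested by an exact two-sided permutation test over the 10 libraries. The log2 ratio of SOD2 to SOD1, the mitochondrial to the cytosolic dismutase, was -3.79, -2.20, -1.93, -2.09 and -1.76 in DMSO replicates 1 to 5. In SFN replicates 1 to 5 it was -2.78, -3.08, -2.77, -2.55 and -2.32. Without DMSO replicate 1 every SFN library had a lower ratio than every DMSO library. The difference was -0.35 (exact p = 0.405, adjusted over the 2 ratios p = 0.405), and it was -0.71 without DMSO replicate 1 (exact p = 0.0159, where the smallest possible is 0.00794). The canonical transcripts of SOD2 and SOD1 have 14167 and 895 nt. With the length curve removed the log2 fold changes were 0.33 for SOD2 and 0.33 for SOD1 with all libraries. They were 0.42 and 0.49 without DMSO replicate 1. The SOD2 values in these fits depend on its long canonical transcript. The ratio itself was not tested with the curve removed, and the part of transcript length in its difference was not tested.

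The log2 ratio of GPX4 to GPX1, both short selenoprotein mRNAs, varied less between libraries. It was 2.52, 2.77, 2.64, 2.68 and 2.54 in DMSO replicates 1 to 5 and 2.88, 2.51, 2.85, 2.86 and 2.88 in SFN replicates 1 to 5. Apart from SFN replicate 2 the SFN values exceeded all DMSO values. The difference was 0.16 (exact permutation p = 0.111, adjusted over the 2 ratios p = 0.222), and without DMSO replicate 1 it was 0.13 (exact permutation p = 0.190). Without SFN replicate 2 it was 0.23 (exact permutation p = 0.0159), and leaving out any other single library gave 0.13 to 0.20 with an exact permutation p of 0.0714 or more. The planned ratio of GPX8 to GPX7 was not computed.

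Genes that act with these enzymes were described from 10 lists, of whose 115 genes 88 were tested. Counts without DMSO replicate 1 are to be read against the 22.5% of all genes called higher and 23.5% called lower in that fit. Counts with the length curve removed and all libraries kept are to be read against 13.2% and 15.5%. With DMSO replicate 1 left out as well, these shares were 25.5% and 22.3%. Selenocysteine insertion needs a dedicated machinery, and of its 10 genes 1 was called higher and 0 lower by edgeR's quasi-likelihood test (1 and 1 at an unadjusted p under 0.05, and 1 and 0 by DESeq2). The gene that rose was SECISBP2, which binds the element that recodes TGA in selenoprotein mRNAs. It went from 35.4 ± 2.01 to 46.6 ± 3.62 CPM (SD, n = 5, log2 fold change 0.40 with an SE of 0.10, adjusted p = 0.011 in that test), and its groups did not overlap. SECISBP2 kept its call without DMSO replicate 1 (0.39, adjusted p = 0.0032), where 2 genes of the list were higher and 1 lower. It lost its call when scaled by library size alone and without the low-count filter (adjusted p = 0.072 for each in that test). The median log2 fold change of this list was -0.02.

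Of the other selenoproteins 15 were tested, with 1 higher and 1 lower, and a median log2 fold change of 0.32. SELENOT, a selenoprotein of the ER membrane, rose from 116 ± 10.9 to 153 ± 9.03 CPM (SD, n = 5, log2 fold change 0.40, adjusted p = 0.012 in the quasi-likelihood test of edgeR). By the same test SELENOT lost its call when scaled by library size alone (adjusted p = 0.052) and without the low-count filter (adjusted p = 0.063). DIO2, the deiodinase that activates thyroid hormone, fell from 4.56 ± 1.06 to 2.57 ± 0.713 CPM (SD, n = 5, log2 fold change -0.82, adjusted p = 0.026 in that test), with overlapping groups. DIO2 lost its call without DMSO replicate 2, 3 or 4 or SFN replicate 2 or 3 (adjusted p = 0.051 to 0.076). With quantile normalization in limma-voom DIO2 was not called either (adjusted p = 0.11). Without DMSO replicate 1 the counts were 8 and 1, with SELENOT (0.42) and DIO2 (-0.92) among them, and with the length curve removed they were 5 and 1. Of the rest of both families only SOD3, the extracellular dismutase, was tested, and it was not called (log2 fold change 0.13 with an SE of 0.20, adjusted p = 0.71).

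None of the 6 genes of copper delivery to SOD1 was called in either direction by edgeR's quasi-likelihood test (0 and 0 at an unadjusted p under 0.05, and 0 and 0 by DESeq2). CCS, the copper chaperone of SOD1, had the largest log2 fold change of that list, -0.19 (SE 0.27, adjusted p = 0.67), and 0.14 without DMSO replicate 1, where 1 gene of the list was higher and 0 were lower. Of 15 peroxins tested, the proteins that build the peroxisomes where catalase resides, 1 was higher and 3 were lower, but without DMSO replicate 1 the counts were 4 and 5, and with quantile normalization in limma-voom 2 and 1. PEX11A, which promotes peroxisome division, fell from 3.72 ± 1.16 to 1.76 ± 0.312 CPM (SD, n = 5, log2 fold change -1.06, adjusted p = 0.0083 in the quasi-likelihood test of edgeR). The import docking protein PEX14 fell too (log2 fold change -0.39, adjusted p = 0.048), while PEX19, a chaperone for peroxisomal membrane proteins, rose (0.43, adjusted p = 0.041). The groups overlapped for PEX14 and PEX19. These 3 peroxins were called in the same directions without DMSO replicate 1 (-0.87 for PEX11A, -0.37 for PEX14 and 0.39 for PEX19). PEX14 lost its call without any other single library except SFN replicate 2 (adjusted p = 0.058 to 0.11). PEX19 lost it without DMSO replicate 2, 3 or 4 or SFN replicate 1, 2, 3 or 5 (adjusted p = 0.057 to 0.10). Neither was called by the same test without the low-count filter (adjusted p = 0.10 for each). PEX19 was not called when scaled by library size alone (adjusted p = 0.14 in that test). PEX14 was not called with quantile normalization in limma-voom (adjusted p = 0.11).

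Among 11 tested genes that produce superoxide or hydrogen peroxide, 0 were called in either direction by edgeR's quasi-likelihood test (1 higher and 1 lower at an unadjusted p under 0.05, and 0 and 1 by DESeq2). PAOX, a polyamine oxidase, had the largest log2 fold change of these, -1.04 (SE 0.39, adjusted p = 0.079), and it was past the threshold without DMSO replicate 1 (-1.09, adjusted p = 0.034), where 2 genes of the list were higher and 1 lower. Of the 6 peroxiredoxins, thiol peroxidases that share the work of the glutathione peroxidases, 0 were called in either direction by the same test with all libraries (1 and 0 at an unadjusted p under 0.05, and 1 and 0 by DESeq2). Without DMSO replicate 1, 6 were called higher and 0 lower. PRDX1, PRDX2, PRDX4 and PRDX5 have canonical transcripts of 860 to 956 nt, and in that fit 38.01% of all genes under 1000 nt were called higher. With the length curve removed, 2 of the 6 were higher with all libraries. With DMSO replicate 1 left out as well 5 were higher, where 25.5% of all genes tested were. PRDX6 had the largest log2 fold change of this list, 0.50 (adjusted p = 0.061) with all libraries and 0.68 (adjusted p = 1.1e-04) without DMSO replicate 1.

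The glutathione that these peroxidases use is made and recycled by other enzymes. Of 8 genes of glutathione supply 3 were higher and 0 lower by edgeR's quasi-likelihood test (3 and 0 at an unadjusted p under 0.05, and 3 and 0 by DESeq2). GCLM, the modifier subunit of the rate-limiting enzyme of glutathione synthesis, rose from 63.6 ± 19.3 to 157 ± 6.26 CPM (SD, n = 5, log2 fold change 1.30 with an SE of 0.17, adjusted p = 2.0e-04 in that test). GSS, which completes the synthesis, rose from 51.2 ± 5.31 to 67.6 ± 7.19 CPM (log2 fold change 0.40, adjusted p = 0.024). CHAC1, which breaks glutathione down, went from 1 to 4 counts in a DMSO library to 200 to 259 counts in an SFN library (adjusted p = 2.5e-08). GCLM, GSS and CHAC1 were also called without DMSO replicate 1, where 4 genes of the list were higher and 0 lower. GSS lost its call without DMSO replicate 4 or SFN replicate 2 or 3 (adjusted p = 0.055 to 0.068) and with the length curve removed (adjusted p = 0.075). By the same test it was also lost when scaled by library size alone (adjusted p = 0.15) and without the low-count filter (adjusted p = 0.090).

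On the list of genes that act beside GPX4 on lipid peroxidation, 1 of 6 tested was higher and 1 lower. SLC7A11, the cystine importer, rose from 67.7 ± 9.79 to 206 ± 55.9 CPM (SD, n = 5, log2 fold change 1.61 with an SE of 0.19, adjusted p = 8.5e-05 in the quasi-likelihood test of edgeR). DHODH, a mitochondrial enzyme of pyrimidine synthesis, fell from 12.8 ± 2.72 to 8.61 ± 1.35 CPM (log2 fold change -0.58, adjusted p = 0.026). Both were called without DMSO replicate 1 (1.52 and -0.44), where the counts were again 1 and 1. DHODH lost its call with the length curve removed (-0.54, adjusted p = 0.083, and -0.30, adjusted p = 0.079, without DMSO replicate 1), with quantile normalization (-0.42, adjusted p = 0.11), and without SFN replicate 1, 4 or 5 (adjusted p = 0.058 to 0.065). Of 14 NRF2 target genes tested, 5 were higher and 0 lower by the same test (6 and 0 at an unadjusted p under 0.05, and 6 and 0 by DESeq2), with a median log2 fold change of 0.44. The counts were 10 and 0 without DMSO replicate 1, and 8 and 0 with the length curve removed. Those called included HMOX1, GCLM, SLC7A11 and FTL. The lists share some genes, and GCLM and SLC7A11 were already counted above, under glutathione supply and beside GPX4. FTL, the ferritin light chain, rose from 299 ± 83.4 to 479 ± 150 CPM (log2 fold change 0.68, adjusted p = 0.049) with overlapping groups. FTL was called without DMSO replicate 1 (0.85, adjusted p = 0.0017), but not when any other single library except SFN replicate 5 was left out (adjusted p = 0.072 to 0.11).

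**Figure D4:**
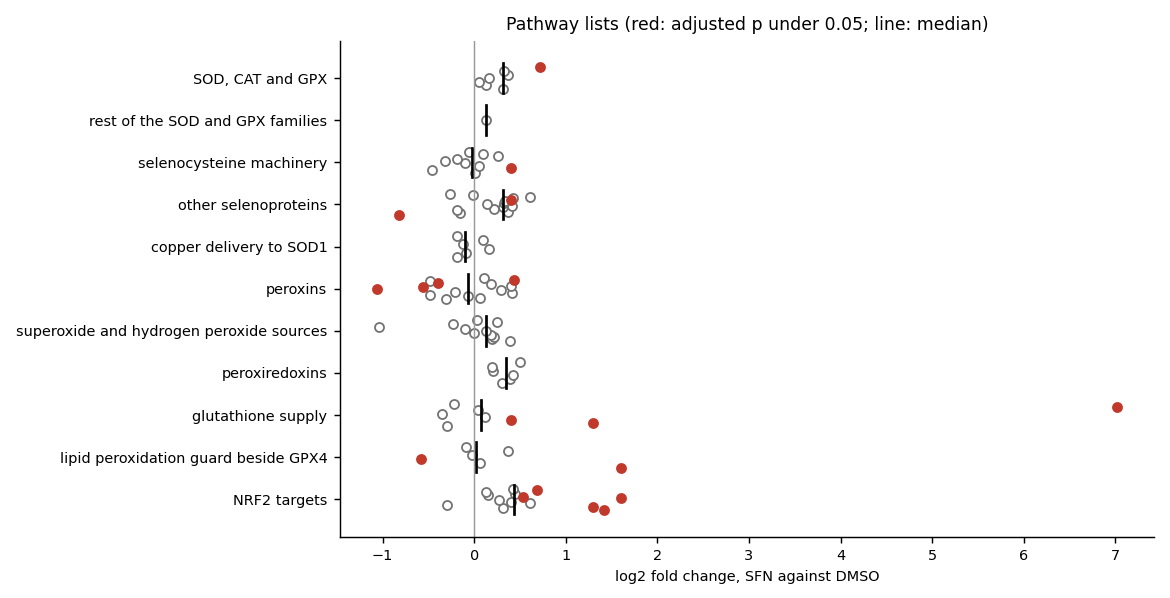
Log2 fold change, SFN against DMSO, of the 7 members and of the tested genes of 10 lists, with 1 point per gene; red points have an adjusted p under 0.05 by edgeR's quasi-likelihood test over all tested genes, and black lines are medians. The members lie between 0.06 and 0.72 with GPX8 in red, and the largest differences are those of CHAC1, SLC7A11, HMOX1 and GCLM.

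The genes whose pattern over the 10 libraries was most like that of GPX8 were found by the root mean square difference of log2 CPM, centred on each gene's mean, among 10033 genes with a mean of at least 5 CPM. The nearest was LAMTOR3, a part of the lysosomal complex that anchors mTORC1, with a difference of 0.071 and a log2 fold change of 0.70. SYVN1, the ubiquitin ligase of ER-associated degradation, followed at 0.075 with a log2 fold change of 0.75. NFE2L2, which encodes NRF2, was the third at 0.078 with a log2 fold change of 0.69. All of these were called higher (adjusted p = 9.1e-04, 6.9e-04 and 8.9e-04 by edgeR's quasi-likelihood test). This likeness is a description, chosen from many genes.

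The promoter windows of the members, from 250 bases before to 50 after each RefSeq start site (GRCh38.p14), were searched on both strands for 5 motifs. The 12 windows belong to 7 members, GPX7 included. SOD1 had no entry. The core of the antioxidant response element, TGACNNNGC, was in 0 of the 12 windows and in 13.3% of all 35116 windows. A consensus NF-kB site and the UPR element core TGACGTGG were also in 0 of the 12, and in 0.191% and 0.729% of all windows. The short CCACG end of the ER stress element was in 8 of the 12 and in 38.1% of all. The windows that hold it belong to GPX1, GPX3, GPX4, SOD2 and CAT, and not to GPX8. Windows of the same gene can overlap, as those of GPX4 do in part, so the same letters can count more than once. The C/EBP-ATF response element TGATGNAAN, which ATF4 is known to bind, was in 1 of the 12, that of GPX8, and in 3.61% of all windows. The match lies 190 to 182 bases before the start site, reads TGATGTAAT on the other strand and is in capitals in the 69 bases shown, because GPX8 is the member that rose.
GPX8, chr5:55159951-55160019, plus strand: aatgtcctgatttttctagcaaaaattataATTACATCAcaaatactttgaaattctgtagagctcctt
A match of letters is not a binding site, and its absence says only that these letters are not in these windows.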

How the data were processed

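The authors sequenced RNA from RPE-1 cells with Lexogen QuantSeq libraries, which read the 3′ ends of transcripts, and aligned the reads with the Bluebee pipeline, while the labels name standard Illumina library protocols. The submitters' processing notes name FastQC, STAR, featureCounts, edgeR and the builds hg38 and GRCh38, without roles. The use of strand, the annotation release and the tool versions are not given in the sources used here. The deposited table holds raw counts for each Ensembl gene, not normalized, with replicates kept separate. Replicates differed by more than sampling noise (chi-square per degree of freedom from 3.50 to 243 over 20 pairs).

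Genes were filtered with filterByExpr, scaled by TMM and compared with edgeR 4.0.16 (glmQLFit and glmQLFTest, R 4.3.3), with Benjamini-Hochberg adjustment over the 13378 genes tested and a threshold of 0.05. CPM were computed on TMM-scaled library sizes. Each SE was obtained from the log2 fold change and the F statistic, the size of the first divided by the square root of the second. The study's repeated-measures model was not run, and limma 3.58.1 (voom, quantile normalized) and DESeq2 1.42.0 were alternatives, with others named in the closing section. The fit was tested on simulated counts. Ratios were taken after adding 0.5 counts. Named genes are all members, called genes of each list (or the gene with the largest log2 fold change where none was called) and the 3 genes most like a called member. Some genes that this rule names are not reported here. Members and lists were chosen with earlier results of these data known.

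Positions and transcript lengths are those of GENCODE 44, to which 28146 of 28380 identifiers were matched. SOD2 is counted among these, matched by symbol because its identifier is not in that release. Whether shared replicate numbers pair the libraries was left undecided, as described in the closing section.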

Additional observations from a re-analysis of the deposited data

Results flagged for a closer look

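Among 24 groups of 5 values examined, 8 had a highest or lowest value whose gap to its nearest neighbour, as a share of the group's range, was above 0.71. Chance alone flags about 1.2 of 24. In 7 of the 8 the value was that of DMSO replicate 1, and these 7 are not independent of each other.

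For SOD1 the gap took 0.902 of the DMSO range, with 788 CPM in DMSO replicate 1 and 240 to 294 CPM in the others. For GPX1 it took 0.907, with 114 CPM against 41.1 to 47.9 CPM, and for GPX4 0.819, with 651 CPM against 248 to 321 CPM. The log2 ratio of SOD2 to SOD1 was lowest in the same library, -3.79 against -2.20 to -1.76, with a gap of 0.784. SOD2, CAT, GPX3 and GPX8 had no such value in either group.

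The same library stood apart in measures over all genes. Its TMM factor was 0.886 against 1.06 to 1.08 (gap 0.907), its length slope -0.271 against 0.0872 to 0.148 (gap 0.855), and its mean Spearman correlation with the other DMSO libraries 0.935 against 0.979 to 0.982 (gap 0.933). What set this library apart was not tested.

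In the SFN group the log2 ratio of GPX4 to GPX1 was 2.51 in SFN replicate 2 and 2.85 to 2.88 in the others (gap 0.917). This library also had the lowest length slope of its group, -0.183.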

How the results depend on the processing

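GPX8 was called higher under all 19 alternatives (log2 fold change 0.64 to 0.90), and no member was called lower under any. DMSO replicate 1 decided most other calls, and the cause was not tested. Members called higher numbered 4 with limma-voom quality weights and 1 to 4 when a library was left out, 4 only without DMSO replicate 1, and 5 with the length curve removed and DMSO replicate 1 left out. Over all genes, those same 3 settings gave 3874, 906 to 3058 and 3451 higher against 1214, and 4041, 1470 to 3193 and 3017 lower against 1862. Of the list genes, 10 were higher and 5 lower. Those higher became 6 by library size only, 39 with quality weights, 19 with the length curve removed, 41 with DMSO replicate 1 left out as well, and 7 to 35 with a library left out. Those lower became 1 with quantile normalization, 12 with quality weights, 8 with the length curve removed and DMSO replicate 1 left out, and 2 to 9 with a library left out. The SOD2 to SOD1 ratio difference ranged from -0.71, without DMSO replicate 1, to -0.20, and that of GPX4 to GPX1 from 0.13 to 0.23, the latter without SFN replicate 2. Directions reversed for CAT by library size only (-0.033) and with the length curve removed and DMSO replicate 1 left out (-0.027), for SOD3 in the latter (-0.13), and for CCS with quantile normalization (0.00075), quality weights (0.055) and without DMSO replicate 1 (0.14, with -0.32 the lowest value when a library was left out). None of these was called. GPX3, at 27 to 57 counts, is limited by depth.

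With the replicate number as a block, 911 genes were called higher and 1530 lower, list genes 5 higher and 3 lower, and GPX8 remained called (0.73, adjusted p = 0.0061 in the quasi-likelihood test of edgeR). Under the block SECISBP2, SELENOT, DIO2, PEX14, PEX19, GSS and FTL were no longer called (adjusted p = 0.051 to 0.086). Deviations of same-numbered libraries from their group means correlated at 0.039, -0.27, -0.060, 0.031 and 0.48. Of the 5 numbers, 0 gave the best correlation with its own. This does not show that the numbers pair the libraries, but it cannot exclude pairing. DMSO replicate 1 stood apart and shifts the group mean from which the DMSO deviations are taken.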
